A study of Homo sapiens with 6 samples.

Results

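The genes described here are NEDD8, the enzyme genes NAE1, UBA3 and UBE2M that attach it to proteins, and the cullin genes CUL1, CUL2, CUL3, CUL4A, CUL4B and CUL5. These 10 of the 21447 genes in the files were chosen by name as the pathway blocked by pevonedistat, an inhibitor of the NEDD8-activating enzyme that the study used in other experiments, and the rule itself uses no measured value. All 10 passed the filter on low counts and belong to the 14323 genes tested.

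RNA was sequenced in bulk from the osteosarcoma cell line U-2 OS, of human origin. The cells grew without synchronization and were harvested untreated or 24 h after ionizing radiation (IR) at 4 Gy. Each group had 3 libraries, and the labels name no agent other than IR. The paper calls the samples independent, but the labels do not say whether they were separate cultures, so that P values measure the spread between these libraries, part of which may be technical. The groups stand for a single cell line, dose and time.

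Estimated counts totalled between 18573309 and 22953834 in 5 of the libraries and 45308792 in IR replicate 3. As a check of the labels, the p53 targets CDKN1A and MDM2 rose after IR by 1.53 and 0.60 on the log2 scale. The mesenchymal markers COL1A1, SPARC and VIM were abundant, COL1A2 stayed between 0.98 and 2.14 CPM (counts scaled to library size by TMM), and summed epithelial markers stayed between 10.9 and 14.1 CPM in all libraries. Leukocyte and endothelial markers summed to at most 1.76 and 0.684 CPM. Within a group, libraries differed beyond sampling noise, most of all the pairs that include IR replicate 3.

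NEDD8 is a small protein of the ubiquitin family that is joined to a lysine of its targets. NAE1 and UBA3 form the activating enzyme, which charges the end of NEDD8 and hands it to the conjugating enzyme UBE2M. The main targets are cullins, the scaffolds of cullin-RING ubiquitin ligases: each cullin binds substrate receptors at its front end and a RING protein at its back end, and NEDD8 on the back end switches the ligase on. These ligases degrade cell cycle and replication proteins, among them the licensing factor CDT1 and the kinase inhibitors p21 and p27, and cells in which NEDD8 conjugation is blocked are known to replicate parts of their DNA again.

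The stretches of coding sequence through which NEDD8 passes are shown first, because they fix what each gene contributes to the reaction. All are read 5′ to 3′ from GENCODE release 44 transcripts on GRCh38, with codons counted from the start codon of the canonical transcript. In NEDD8 the capitals mark the paired glycine codons that end the mature protein, of which the second is codon 76. The window lies in exon 4 of 4, at chr14:24217130-24217165 on the minus strand, and the codons behind the capitals are removed from the precursor protein.
NEDD8: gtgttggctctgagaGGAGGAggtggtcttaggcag
In UBE2M the capitals mark codon 111, the catalytic cysteine that carries NEDD8. The window spans exons 4 and 5 of 6, between 58556373 and 58556724 on the minus strand of chromosome 19.
UBE2M: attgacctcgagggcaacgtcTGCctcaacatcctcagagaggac
In the cullins the capitals mark the codon of the lysine that accepts NEDD8, which is codon 720 in CUL1, 689 in CUL2, 712 in CUL3, 705 in CUL4A, 841 in CUL4B and 724 in CUL5.
CUL1: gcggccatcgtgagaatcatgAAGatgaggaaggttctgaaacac
CUL2: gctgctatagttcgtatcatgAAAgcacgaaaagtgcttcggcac
CUL3: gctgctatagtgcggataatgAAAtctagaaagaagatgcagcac
CUL4A: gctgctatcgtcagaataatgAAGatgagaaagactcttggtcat
CUL4B: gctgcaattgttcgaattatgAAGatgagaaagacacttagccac
CUL5: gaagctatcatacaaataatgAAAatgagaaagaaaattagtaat

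The 6 cullin windows lie at chr7:148799275-148799319 (CUL1, exon 21 of 22, plus strand), chr10:35011866-35011910 (CUL2, exon 20 of 21, minus strand), chr2:224478218-224478262 (CUL3, exon 15 of 16, minus strand), chr13:113260667-113260711 (CUL4A, exon 19 of 20, plus strand), chrX:120530150-120530194 (CUL4B, exon 19 of 20, minus strand) and chr11:108104190-108104234 (CUL5, exon 19 of 19, plus strand). Of the 45 bases, the paralogues CUL4A and CUL4B share 36, the most of any pair, and CUL2 and CUL5 share 24, the fewest. All 6 windows carry the methionine codon atg directly before the acceptor codon. The share of G and C in the window runs from 22.2% in CUL5 to 48.9% in CUL1.

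After IR, CUL2, CUL3, CUL4B and CUL5 fell, by 15.6% to 26.9%, whereas NEDD8 and the genes of its activating and conjugating enzymes did not pass the test in either direction. Thus 4 of the 10 genes were lower and 0 were higher at an adjusted P under 0.05 in edgeR's quasi-likelihood test. Among all genes tested, 30.1% were called, with 14.5% lower and 15.5% higher. At an unadjusted P under 0.05, 0 of the 10 were higher, too, and the DESeq2 Wald test and edgeR's likelihood ratio test also called 4 lower and 0 higher. In the quasi-likelihood fit to counts scaled by TMM, the median log2 fold change was -0.27 over the 6 cullins and 0.04 over the other 4 genes. Over all genes tested it was 0.01. In bulk RNA, fewer cells of a kind and less RNA per cell cannot be told apart.

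**Figure D1:**
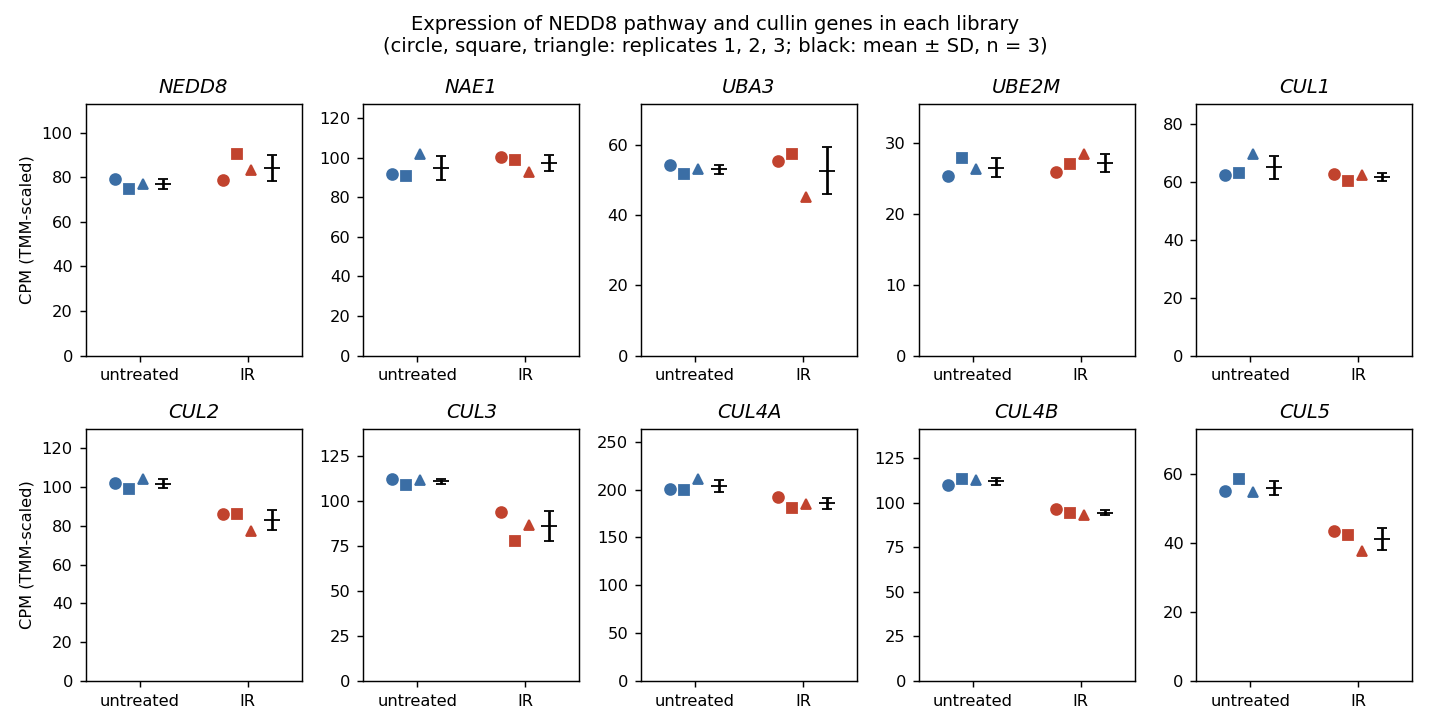
TMM-scaled CPM (y axis, from 0) of the 10 genes in each of the 3 untreated (blue) and 3 IR (red) libraries, with the mean and SD of each group in black. For CUL2, CUL3, CUL4A, CUL4B and CUL5 every IR library lies below every untreated library, whereas the groups overlap for the other 5 genes.

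NEDD8 (ENSG00000129559, chromosome 14, 24216857 to 24232367, minus strand) encodes the modifier itself. It reached 79.1, 74.6 and 77.0 CPM in untreated replicates 1, 2 and 3 and 78.9, 90.4 and 83.4 CPM in the IR replicates. IR replicate 1 lay inside the untreated range and the other IR replicates above it. The log2 fold change was 0.13 (standard error (SE) 0.07, 95% confidence interval (CI) -0.03 to 0.29, adjusted P = 0.182), so that a change was not detected and a rise beyond 0.29 lies outside the interval. NEDD8 shares 488 exon bases, on the same strand, with the readthrough gene NEDD8-MDP1, which held 3.41 to 9.42 CPM. With the counts of both genes summed, the log2 fold change was 0.15 (adjusted P = 0.155).

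NAE1 and UBA3 encode the partners of the activating enzyme that pevonedistat inhibits. NAE1 (ENSG00000159593, chromosome 16, 66802875 to 66873256, minus strand) reached 92.0, 90.8 and 102 CPM in untreated cells and 100.2, 99.0 and 92.9 CPM after IR. The ranges overlapped, with a log2 fold change of 0.04 (SE 0.07, 95% CI -0.12 to 0.19, adjusted P = 0.729). UBA3 (ENSG00000144744, chromosome 3, 69054730 to 69080408, minus strand), the catalytic partner, reached 54.2, 51.6 and 53.2 CPM in untreated cells and 55.5, 57.3 and 45.1 CPM after IR. Here IR replicates 1 and 2 lay above and IR replicate 3 below all untreated libraries, which left the log2 fold change at -0.02 (SE 0.09, 95% CI -0.22 to 0.19, adjusted P = 0.915).

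UBE2M (ENSG00000130725, chromosome 19, 58555712 to 58558954, minus strand), the conjugating enzyme that serves most cullins, reached 25.4, 28.0 and 26.4 CPM in untreated cells and 25.9, 27.1 and 28.5 CPM after IR. These ranges overlapped almost entirely, with a log2 fold change of 0.03 (SE 0.08, 95% CI -0.14 to 0.21, adjusted P = 0.767).

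CUL5 (ENSG00000166266, chromosome 11, 108008898 to 108107761, plus strand), the scaffold that pairs with the RING protein RNF7 and SOCS-box receptors, had the largest log2 fold change of the 10 genes in the fit to counts scaled by TMM. It reached 55.0, 58.5 and 54.9 CPM in untreated cells and 43.6, 42.2 and 37.6 CPM after IR. All IR libraries were below all untreated libraries, and the gene fell by 0.45 on the log2 scale, or by 26.9% (SE 0.08, 95% CI -0.62 to -0.28, adjusted P = 0.00254). By P value CUL5 ranked 741 among all genes tested. CUL3 moved more with the length offset, with protein-coding transcripts alone and in TPM, and UBE2M moved more with the GC trend removed. With protein-coding transcripts alone, CUL2 also moved slightly more (log2 fold change -0.2992, against -0.2967 for CUL5).

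CUL3 (ENSG00000036257, chromosome 2, 224470150 to 224585397, minus strand), which recruits BTB-domain receptors such as KEAP1 and SPOP, followed. It reached 112, 109 and 112 CPM in untreated cells and 94.1, 77.6 and 87.0 CPM after IR. The untreated libraries lay close together and the IR libraries were spread over a wider range below them. CUL3 fell by 0.36 on the log2 scale, or by 22.3% (SE 0.08, 95% CI -0.53 to -0.19, adjusted P = 0.00692).

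CUL2 (ENSG00000108094, chromosome 10, 35008504 to 35127006, minus strand) is the scaffold of the VHL ligase. It reached 102, 99.1 and 104 CPM in untreated cells and 85.9, 85.8 and 77.1 CPM after IR, again without overlap. Its log2 fold change was -0.30 (95% CI -0.45 to -0.14, adjusted P = 0.0101), a drop of the mean from 102 ± 2.39 to 83.0 ± 5.04 CPM (SD, n = 3). CUL2 shares 191 exon bases with CREM on the opposite strand, and CREM reached 22.1, 25.2 and 22.8 CPM in untreated cells and 26.9, 26.5 and 27.6 CPM after IR. It also shares 540 exon bases, on the same strand, with ENSG00000230534, a gene of long non-coding RNA without deposited counts. Whether reads of ENSG00000230534 were counted as CUL2 was not tested.

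CUL4A and CUL4B are close paralogues that both bind DDB1 and its DCAF receptors, among them DTL, which targets CDT1. CUL4B (ENSG00000158290, chromosome X, 120505920 to 120604074, minus strand) reached 109.9, 113 and 113 CPM in untreated cells and 96.3, 94.0 and 93.3 CPM after IR. The groups were tight and apart, and CUL4B fell by 15.6% (log2 SE 0.06, 95% CI -0.38 to -0.11, adjusted P = 0.0125). CUL4A (ENSG00000139842, chromosome 13, 113208193 to 113267108, plus strand) reached 200.1, 199.8 and 211 CPM in untreated cells and 192, 180.4 and 185 CPM after IR. Although the groups did not overlap, its log2 fold change of -0.13 (SE 0.06, 95% CI -0.27 to 0.00) did not pass the test (adjusted P = 0.127). CUL4A shares 437 exon bases with PCID2 on the opposite strand, which held 107 to 137 CPM.

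CUL1 (ENSG00000055130, chromosome 7, 148697914 to 148801110, plus strand), the scaffold of SKP1 and F-box ligases, reached 62.4, 62.9 and 69.5 CPM in untreated cells and 62.8, 60.2 and 62.2 CPM after IR. Only untreated replicate 3 stood above the other libraries, and the log2 fold change was -0.07 (SE 0.07, 95% CI -0.23 to 0.08, adjusted P = 0.451).

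For 5 of the 10 genes (CUL2, CUL3, CUL4A, CUL4B and CUL5) all IR libraries were below all untreated libraries, and for 0 genes above, where 23.3% of all genes tested were lower and 23.8% higher without overlap. In a two-sided exact permutation test over libraries each of these 5 genes had P = 0.1, the smallest value that 3 libraries against 3 can give. Without IR replicate 3, the deepest library, the same 4 cullins were called. Without untreated replicate 2, CUL4B was not called (adjusted P = 0.0583 in edgeR's quasi-likelihood test).

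The 4 cullins that fell are among the 5 genes of lowest GC content in the set. The transcripts of the 10 genes, weighted by abundance, had a GC content of 35.9% in CUL5, 37.1% in CUL4B, 37.5% in CUL3, 38.7% in UBA3, 39.8% in CUL2, 40.2% in NAE1, 43.6% in CUL1, 44.7% in CUL4A, 51.1% in NEDD8 and 61.9% in UBE2M. Library by library, log2 CPM relative to the mean of all libraries changed per 10 points of GC content by -0.13 to -0.08 in untreated cells and by 0.03, 0.08 and 0.20 in IR replicates 1, 2 and 3. Of the 1464 genes tested with a GC content between those of CUL5 and CUL2, 32.8% were lower and 3.62% higher after IR, and their median log2 fold change was -0.19. Of the 5 genes described here inside that range, 4 were lower and UBA3 was not called.

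**Figure D2:**
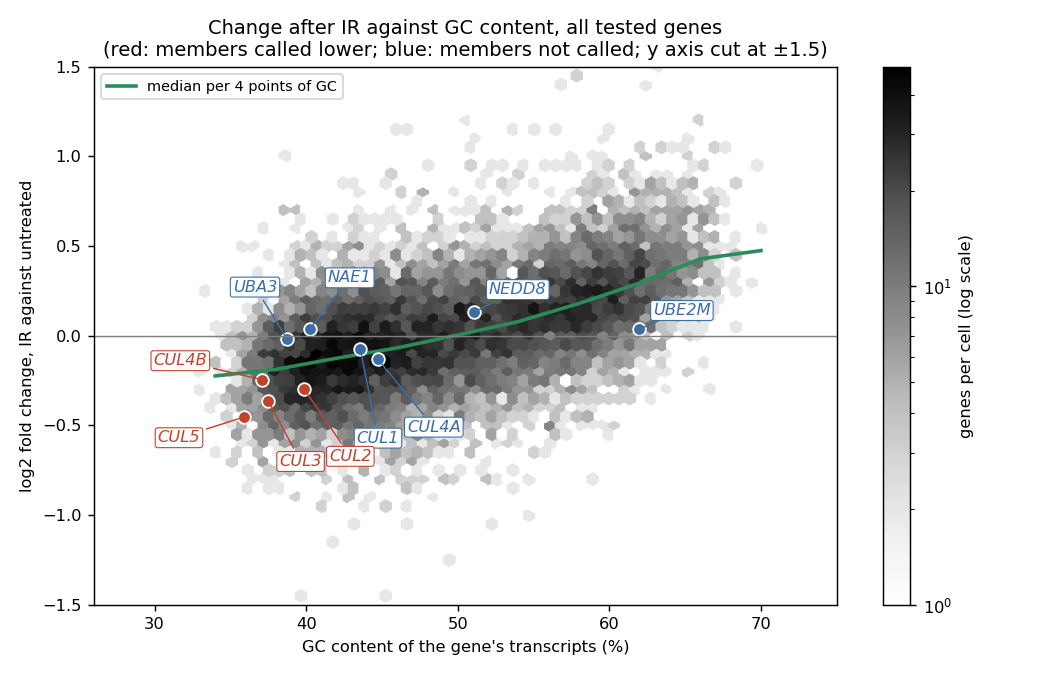
Log2 fold change after IR (y axis) against the GC content of the transcripts (x axis, %) for all 14323 genes tested (grey cells, darker with more genes), with the median per 4 points of GC content as a green line. CUL2, CUL3, CUL4B and CUL5 (red) lie on or below the line at its low end, NAE1 and UBA3 lie above it, and UBE2M lies below it at the high end.

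With each library's GC trend removed, CUL5 was the only cullin still lower in edgeR's quasi-likelihood test (log2 fold change -0.23, adjusted P = 0.0258). CUL2 came to -0.13 (adjusted P = 0.0990), CUL3 to -0.16 (adjusted P = 0.118) and CUL4B to -0.03 (adjusted P = 0.706). In this fit NAE1 was higher (0.20, adjusted P = 0.0248) and UBE2M was lower (-0.27, adjusted P = 0.0192), while UBA3 came to 0.17 (adjusted P = 0.125) and NEDD8 to 0.11 (adjusted P = 0.215). In all, 1 of the 10 genes was higher and 2 were lower, beside 11.7% higher and 12.6% lower of all genes tested. The median log2 fold change came to -0.09 over the 6 cullins and 0.14 over the other 4 genes, beside 0.00078 over all genes tested. The removal takes out whatever moves with GC content, and what gave rise to the trend was not tested.

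A further fit used the effective length as an offset. The authors' quantification estimated this length per transcript in each library, and it was averaged per gene here, weighted by transcript abundance. The offset therefore also moves with how counts were split over the transcripts of a gene. In edgeR's quasi-likelihood test with this offset, CUL3 (log2 fold change -0.63, adjusted P = 0.0252) and CUL5 (-0.56, adjusted P = 0.0179) were lower. CUL2 (-0.40, adjusted P = 0.0572) and CUL4B (-0.41, adjusted P = 0.0863) did not pass. The median log2 fold change came to -0.40 over the 6 cullins and 0.01 over the other 4 genes. The fit called 6.11% of all genes lower and 5.84% higher. CUL5 was thus called in each of 17 alternative fits, with log2 fold changes between -0.60 and -0.23, CUL3 in 16 of 17, CUL2 in 15 of 17 and CUL4B in 11 of 17.

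**Figure D3:**
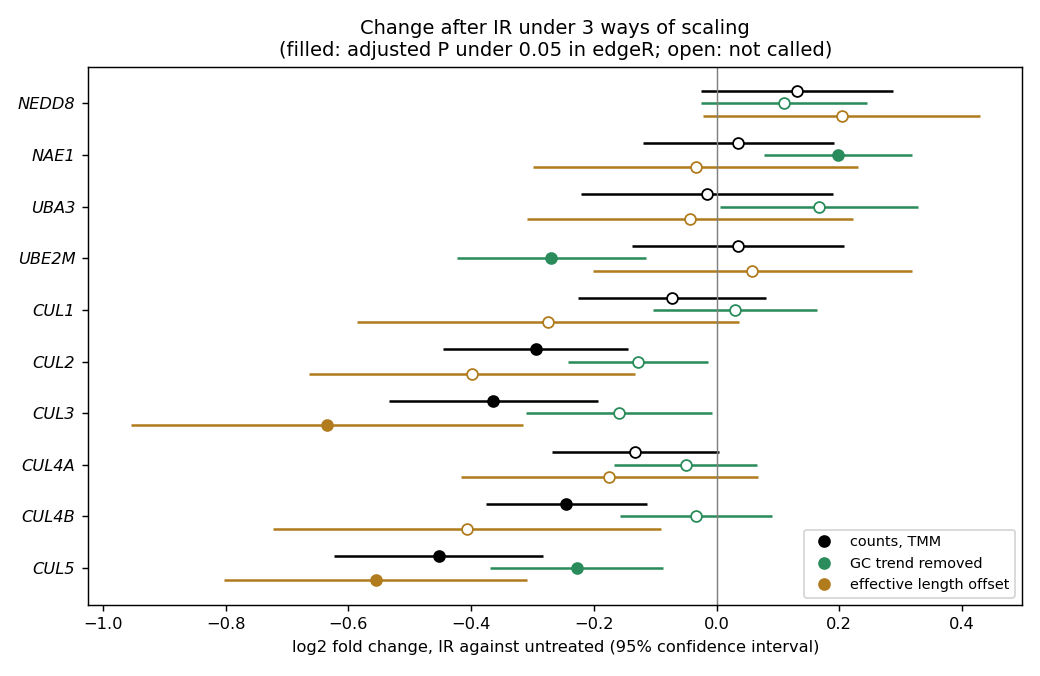
Log2 fold change after IR with its 95% CI (x axis) for each of the 10 genes (y axis), from counts scaled by TMM (black), with the GC trend removed (green) and with an effective length offset (ochre), where filled circles have an adjusted P under 0.05. The estimates of the 4 called cullins stay left of 0 in all 3 fits, but the interval of CUL4B crosses 0 in the green fit. NAE1 and UBE2M are called only in the green fit, and CUL5 is called in all 3.

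To set the genes beside each other, the deposited TPM values, transcript abundances scaled for length, were summed per gene. In untreated cells NEDD8 was the most abundant at 158 ± 4.32 TPM, followed by CUL4A at 150 ± 17.9, CUL3 at 116 ± 21.9 and NAE1 at 112 ± 15.9 TPM (SD, n = 3). CUL2 at 79.9 ± 4.43, CUL4B at 67.8 ± 7.43, CUL1 at 48.8 ± 5.53, UBA3 at 46.2 ± 0.672, UBE2M at 35.7 ± 1.14 and CUL5 at 23.3 ± 1.33 TPM came next (SD, n = 3). Neighbours in this order overlapped between libraries for NEDD8 and CUL4A, CUL4A and CUL3, CUL3 and NAE1, and CUL1 and UBA3, and not for the other pairs. The modifier was thus the most abundant message on average and CUL5 the least in every library.

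After IR, NEDD8 at 176 ± 19.9 TPM and CUL4A at 128 ± 4.46 TPM stayed first and second, and CUL5 at 15.4 ± 0.978 TPM stayed last (SD, n = 3). CUL3 went from 116 ± 21.9 to 72.3 ± 6.15 TPM and moved from the third to the fourth place behind NAE1 at 105 ± 6.76 TPM (SD, n = 3). In TPM all IR libraries were below all untreated libraries for 7 of the 10 genes and above for 0, beside 21.8% and 14.1% of all genes tested. These were CUL2, CUL3, CUL4A, CUL4B and CUL5, and also CUL1 (45.6, 45.5 and 55.1 TPM in untreated cells and 45.3, 36.8 and 34.8 TPM after IR) and UBA3 (45.5, 46.9 and 46.2 TPM in untreated cells and 45.2, 45.2 and 39.4 TPM after IR), and limma called neither CUL1 nor UBA3 on log2(TPM + 0.5).

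**Figure D4:**
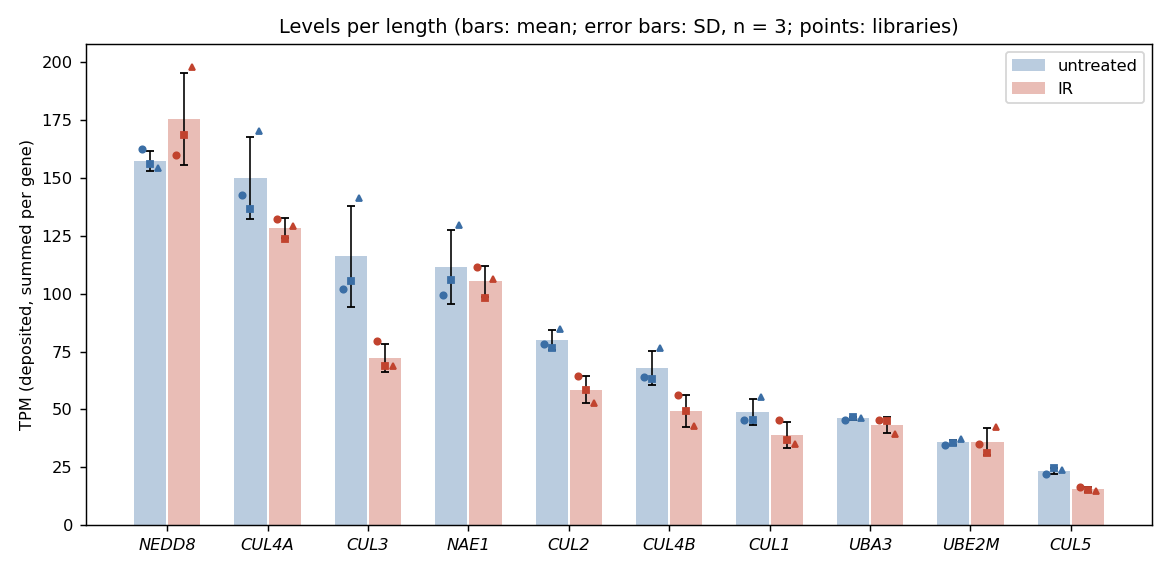
Mean deposited TPM summed per gene (bars from 0, y axis) in untreated (blue) and IR (red) cells with the SD (n = 3) and each library as a point, ordered by the untreated mean. NEDD8 and CUL4A are the most abundant in both groups and CUL5 the least, and CUL3 has the widest gap between the groups relative to its level.

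Partner genes were compared as ratios of TPM within each library, for 4 pairs. NAE1 to UBA3, which act in a complex, went from 2.42 ± 0.342 in untreated cells to 2.45 ± 0.263 after IR (SD, n = 3; exact permutation P = 1, adjusted over the 4 ratios 1). CUL4A to CUL4B stood at 2.24, 2.17 and 2.23 in untreated cells and at 2.35, 2.52 and 3.03 after IR. All IR libraries were above the untreated libraries, a log2 difference of 0.24 (exact permutation P = 0.1, adjusted 0.4), which came to 0.11 in TMM-scaled CPM and to 0.14 without IR replicate 3. UBE2M to UBE2F, the second conjugating enzyme, which serves CUL5, went from 0.998 ± 0.0691 to 0.876 ± 0.0773 (SD, n = 3; exact permutation P = 0.2, adjusted 0.4), and RBX1 to RNF7, the RING proteins, from 0.481 ± 0.0413 to 0.419 ± 0.0538 (SD, n = 3; exact permutation P = 0.3, adjusted 0.4). None of the 4 ratios can pass the threshold with 3 libraries a group.

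The estimated counts also split each gene over its transcripts. NEDD8 was carried by ENST00000250495 (81.7% to 88.7% of its counts in the 6 libraries), CUL3 by ENST00000409096 (78.0% to 87.7%), CUL2 by ENST00000421317 (53.0% to 69.4%), CUL4A by ENST00000451881 (48.4% to 72.3%) and CUL5 by ENST00000393094 (57.1% to 73.8%). By mean count over the 6 libraries, the leading transcripts of the others were ENST00000361055 for UBA3 (45.3% to 94.8%), ENST00000290810 for NAE1 (32.1% to 57.7%), ENST00000253023 for UBE2M (46.5% to 60.2%), ENST00000325222 for CUL1 (26.7% to 45.9%) and ENST00000371323 for CUL4B (0.226% to 40.4%). These shares varied most between libraries for UBA3 and CUL4B. The transcript named for CUL4B led in 0 of 3 untreated libraries and in all 3 IR libraries, that for CUL1 in 3 of the 6 libraries, that for UBE2M in 4 and that for NAE1 in 5. The mean gives the most weight to IR replicate 3, the deepest library. CUL5 differs from the other genes in that a large part of its counts, 33.5%, 42.9% and 34.0% in untreated cells and 31.9%, 28.6% and 25.9% after IR, fell on transcripts annotated as targets of nonsense-mediated decay. For the other 9 genes this share was at most 13.3%.

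A change in transcript usage was called for 0 of the 10 genes by edgeR's diffSpliceDGE with Simes P values, beside 2.67% of the 10666 genes tested. At an unadjusted P under 0.05 the count was 0 as well, and the lowest unadjusted P was 0.263, for NAE1. Without untreated replicate 3, CUL4A was called (adjusted P = 3.82e-06), and without IR replicate 1, NAE1 was called (adjusted P = 0.0239). With only protein-coding transcripts summed, CUL2 (log2 fold change -0.30), CUL3 (-0.37) and CUL5 (-0.30) were still lower in edgeR's quasi-likelihood test, whereas CUL4B came to -0.08 (adjusted P = 0.677).

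The other genes of NEDD8 conjugation and cullin ligases were followed in a list of 56 genes, 55 of which were tested, since CAND2 was listed at 0 in all libraries. After IR 9 were higher and 8 lower, beside 15.5% higher and 14.5% lower of all genes tested, and the median log2 fold change was -0.01. With the GC trend removed, 7 were higher and 2 lower, beside 11.7% higher and 12.6% lower of all genes tested. In that fit 8 of the 17 genes kept their call and direction. With the length offset 5 were higher and 5 lower, beside 5.84% higher and 6.11% lower of all genes tested. Here 7 of the 17 kept their call and direction (CUL9, DDB2, CDKN1A, CCND1, SKP2, CDKN1B and WEE1). Without untreated replicate 1 or untreated replicate 2, 6 were higher and 3 lower in each case.

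Of 8 other conjugation factors, RNF7, the RING protein of CUL5, was the only gene called. It reached 56.9, 51.1 and 58.5 CPM in untreated cells and 64.0, 66.3 and 73.0 CPM after IR, with a log2 fold change of 0.29 (SE 0.08, adjusted P = 0.0214), and it stayed higher with the GC trend removed (0.32, adjusted P = 0.0133) but was not called with the length offset (0.45, adjusted P = 0.0614). In the fit to counts, CUL5 and its RING partner thus moved in opposite directions. RBX1, the RING protein of the other cullins, came to 0.18 (adjusted P = 0.363), and UBE2F came to 0.21 (adjusted P = 0.0736), with a call of 0.28 (adjusted P = 0.0261) once the GC trend was removed.

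The 2 atypical cullins, CUL7 and CUL9, both rose, by 0.36 and 0.35 on the log2 scale (adjusted P = 0.00669 for each). CUL7 reached 51.6, 57.4 and 54.9 CPM in untreated cells and 68.4, 66.3 and 75.4 CPM after IR, and CUL9, which binds p53, reached 46.6, 48.2 and 46.9 CPM in untreated cells and 56.2, 59.0 and 64.5 CPM after IR. Their GC content of 59.4% and 58.6% lies at the other end of the scale, and with the GC trend removed neither was called (0.14, adjusted P = 0.126, and 0.15, adjusted P = 0.0689).

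Of 12 genes for NEDD8 removal, the subunit COPS3 of the COP9 signalosome, which strips NEDD8 from cullins, fell by 0.21 on the log2 scale (adjusted P = 0.0402), and UCHL3, a hydrolase that processes ubiquitin and NEDD8 precursors, rose by 0.30 (adjusted P = 0.0169). UCHL3 reached 24.2, 24.6 and 26.3 CPM in untreated cells and 32.5, 30.2 and 29.6 CPM after IR. It stayed higher with the GC trend removed (0.45, adjusted P = 0.00107) but was not called with the length offset (0.24, adjusted P = 0.206). COPS3 was called in neither (-0.07, adjusted P = 0.382, with the GC trend removed). CAND1, which exchanges receptors on cullins that carry no NEDD8, fell by 0.22 (adjusted P = 0.0354) and came to -0.02 with the GC trend removed.

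Of 9 adaptors and partner ubiquitin enzymes, the elongin ELOB, an adaptor of CUL2 and CUL5, rose by 0.33 (adjusted P = 0.0457) and the conjugating enzyme UBE2G1 fell by 0.23 (adjusted P = 0.0237). Neither was called with the GC trend removed (0.07 and -0.15). Most of this group lay near 0, with a median log2 fold change of -0.01.

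Of 12 substrate receptors, DDB2 and FBXW7 rose and SKP2, SPOP and DTL fell. DDB2, a damage-recognition receptor of CUL4 ligases and a known p53 target, reached 89.2, 84.6 and 85.8 CPM in untreated cells and 144, 158 and 149 CPM after IR, with a log2 fold change of 0.80 (SE 0.07, adjusted P = 0.000158). FBXW7, the receptor for cyclin E and MYC, rose by 0.39 (adjusted P = 0.00487), but with the length offset it came to -0.03 (adjusted P = 0.919). SKP2, the receptor through which CUL1 degrades p27, reached 123, 115 and 115 CPM in untreated cells and 88.7, 82.9 and 84.8 CPM after IR and fell by 0.46 (adjusted P = 0.00116). SPOP, a receptor of CUL3, and DTL, the receptor through which CUL4 degrades CDT1 and p21, fell by 0.21 (adjusted P = 0.0331) and 0.23 (adjusted P = 0.0232). With the GC trend removed DDB2 (0.74), FBXW7 (0.52) and SKP2 (-0.32) were still called, and SPOP (-0.12) and DTL (-0.11) were not.

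Of 9 known substrates, CDKN1A (p21) and CCND1 (cyclin D1) rose, by 1.53 and 0.52 on the log2 scale, and CDKN1B (p27) and WEE1 fell, by 0.44 and 0.32. CDKN1B reached 59.4, 58.9 and 69.4 CPM in untreated cells and 48.0, 45.2 and 45.2 CPM after IR (adjusted P = 0.00365), so that the messages of p27 and of its receptor SKP2 both fell. With the GC trend removed CDKN1A (1.33), CCND1 (0.49) and CDKN1B (-0.36) were still called and WEE1 (-0.15) was not. CDT1, singled out here after its values were seen, reached 37.7, 41.2 and 42.5 CPM in untreated cells and 47.3, 41.7 and 51.2 CPM after IR and did not pass the test (log2 fold change 0.21, adjusted P = 0.0960). With the GC trend removed it came to -0.17, on the other side of 0, again without a call. These are levels of RNA, while cullin ligases act on the proteins.

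**Figure D5:**
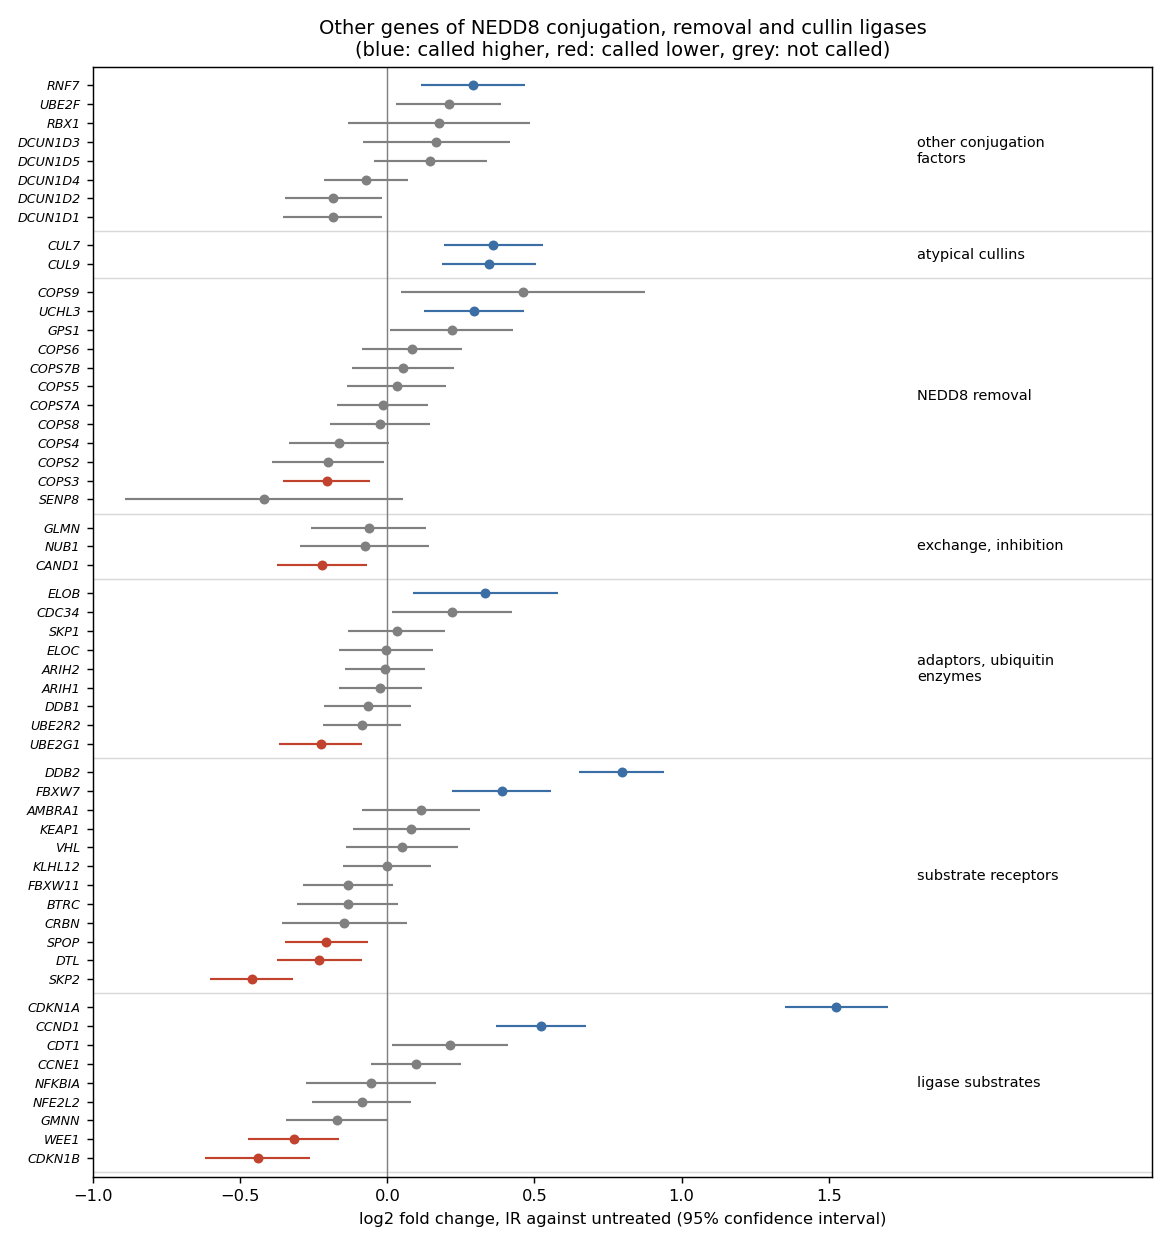
Log2 fold change after IR with its 95% CI (x axis) for the 55 tested genes of the pathway list (y axis), grouped by role, with called genes in blue (9 higher) and red (8 lower). CDKN1A and DDB2 lie furthest to the right, SKP2 and CDKN1B are the called genes furthest to the left, and both atypical cullins lie to the right of 0.

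The genes whose log2 CPM was most like that of CUL5 over the 6 libraries, among the 11677 genes averaging 100 counts or more, were ATF2, MKI67 and PLCE1, with Pearson correlations of 0.998 each. All 3 also fell after IR (log2 fold changes -0.34, -1.10 and -0.63), and the points of such a correlation share the difference between the groups, the depth and the GC trend of the libraries. MKI67 is the proliferation marker Ki-67. The correlation is a description over 6 points with no test.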

How the data were processed

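Bulk RNA-seq of untreated and IR-treated U-2 OS cells was analysed, with 3 libraries per group as given by the sample labels. The authors removed adaptors with fastp and quantified transcripts with kallisto (version not given in the sources used here) on GENCODE release 37 of GRCh38. Per transcript, the deposited values are estimated counts that are not normalized, TPM (which the authors' kallisto run scaled per effective length and library), length and effective length. The strand setting is not given in the sources used here, so that reads of genes overlapping on opposite strands may not be separated. The paper names a total RNA kit and the labels name poly(A) RNA, and one deposited IR library (replicate 3) is marked in a way that could stand for a repeat run.

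Transcripts were matched to GENCODE release 44 (158711 of 161171, leaving out 1.54% to 1.80% of the counts), and the counts of each of 21447 genes were added up and rounded. Genes kept by filterByExpr were scaled by TMM and tested with glmQLFit and glmQLFTest (edgeR 4.0.16, R 4.3.3), with Benjamini-Hochberg adjustment over all 14323 genes and a threshold of 0.05. CPM values are TMM-scaled. SE is the size of the log2 fold change divided by √F. Per-library GC trends were removed with lowess offsets (span 0.3). Transcript usage was tested with diffSpliceDGE. DESeq2 1.42.0 and, on log2(TPM + 0.5) and log2(TPM + 0.1), limma 3.58.1 served as alternatives, beside other filters, a replicate block, an effective length offset and leaving out each library. The scripts were tested on simulated data.

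Counts per gene and library ranged from 462 (UBE2M) to 8343 (CUL4A), and the deepest library, IR replicate 3, has the smallest counting error. The members were set by name and the lists by role, without a threshold on measured values, but both were chosen with earlier results of these data known. Named genes are all 10 members, called genes of the pathway list, partners or paralogues of members, genes with deposited counts that share exons with a member, the leading transcripts, the 3 genes most correlated with the member of lowest P, and CDKN1A and MDM2. Genes of long non-coding RNA without deposited counts also share exon bases with UBA3, CUL1, CUL3 and CUL5 on the opposite strand. scRNA-seq and imaging data of the study were not analysed here. Some genes are not reported here.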

Additional observations from a re-analysis of the deposited data

How the results depend on the processing

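Of the 10 genes, NEDD8, CUL4A and CUL5 kept their direction and their side of the threshold in all alternatives run. The number of genes called over the whole table moved from 4307 to 1712 with the effective length offset, and the number among the 10 genes from 4 to 2. In the list of 56 genes it moved from 17 to 11 with the replicate block, 9 with the GC trend removed and 10 with the length offset. With the GC trend removed, NAE1 (0.20) was called, UBA3 (0.17), UBE2M (-0.27) and CUL1 (0.0304) turned in direction, and CUL2 (-0.13), CUL3 (-0.16) and CUL4B (-0.0334) were no longer called. With the length offset NAE1 turned to -0.0338, and CUL2 (-0.40) and CUL4B (-0.41) were not called. With protein-coding transcripts alone UBA3 turned to 0.0431 and CUL4B (-0.0805) was not called. With limma on log2(TPM + 0.5) and log2(TPM + 0.1), NAE1 turned to -0.0742 and -0.0744, and CUL4B came to -0.46 in both without a call. Apart from what these alternatives remove or leave out, the cause was not tested.

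Leaving out each library in turn gave 2582 (without untreated replicate 1) to 4398 genes called, 3 to 4 of the 10 genes, 9 to 17 of the list of 56 and 0 to 1 for transcript usage. Log2 fold changes then ran from 0.0776 (without IR replicate 2) to 0.16 for NEDD8, -0.10 to -0.0205 (without untreated replicate 3) for CUL1, -0.00020 to 0.0904 for NAE1, -0.0819 to 0.0796 for UBA3, -0.0141 to 0.0730 for UBE2M and -0.27 to -0.24 for CUL4B, where the call ended without untreated replicate 2. Replicate numbers are shared between the groups, but deviations of libraries with the same number correlated at 0.04, -0.01 and -0.10, so the numbers were not taken to pair the libraries. With the replicate block 3351 genes were called, among them CUL2 (adjusted P = 0.0300), CUL3 (0.0140), CUL4B (0.0436) and CUL5 (0.00749). Transcript shares rest on fewer counts than the sums per gene.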

Other observations

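Ubiquitin and other ubiquitin-like modifiers, with activating and conjugating enzymes, were looked at in a list of 16 genes. The list was written after values of these data had been seen, so that it supports nothing by itself. After IR 1 of them was higher and 3 lower, beside 15.5% and 14.5% of all genes tested. The 3 lower genes all belong to the SUMO system. SUMO2, a modifier, reached 297, 285 and 314 CPM in untreated cells and 255, 268 and 226 CPM after IR and fell by 16.3% (adjusted P = 0.0292, edgeR quasi-likelihood). SAE1 and UBA2, the partners of the SUMO-activating enzyme and the counterparts of NAE1 and UBA3, fell by 14.6% (adjusted P = 0.0184) and 13.5% (adjusted P = 0.0277). With the GC trend removed, SUMO2 (-0.22, adjusted P = 0.0361) and SAE1 (-0.26, adjusted P = 0.00804) were still called and UBA2 (-0.09, adjusted P = 0.216) was not. With the length offset none of these 3 genes was called by edgeR (adjusted P = 0.133 for SUMO2, 0.0801 for SAE1 and 0.102 for UBA2).

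ISG15, an interferon-induced modifier, was the gene that rose, from 2.53, 2.85 and 2.15 CPM in untreated cells to 4.79, 4.57 and 8.59 CPM after IR (log2 fold change 1.28, adjusted P = 0.00621). None of the 4 genes of the UFM1 system was called by edgeR's quasi-likelihood test, with a median log2 fold change of 0.05.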
